A study of Mus musculus with 11 samples.

Results

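Translation initiation factor genes were taken from the count table as every gene whose symbol begins with Eif1 to Eif6, which gave 55 of the 14602 genes. Eif2s3x and Eif2s3y, the sex-linked copies of the gene for the gamma subunit of eIF2, were left out of the 57 genes that matched. The 55 genes were sorted by role into an eIF2 group (13 genes), an eIF3 group (13 genes), an eIF4 group (15 genes) and 10 genes of eIF1, eIF1A, eIF5, eIF5A, eIF5B and eIF6. The other 4, Eif2c1 to Eif2c4, match by an older symbol only. They are now called Ago1 to Ago4 and encode Argonaute proteins of RNA silencing, so they were kept apart.

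The libraries came from the retinal pigment epithelium (RPE) and choroid of C57BL/6J mice, 6 naïve control and 5 laser treated. Laser treated mice received the 2RT nanosecond laser, which ablates small spots of RPE, at 9 months of age, and tissue was collected at 12 months, 3 months after the laser. Naïve control mice received no laser and were of the same age, and no other genotype was involved. The paper states that before laser treatment all animals were anaesthetized with ketamine and xylazine. They also had topical corneal anaesthesia and atropine on both eyes, and the laser was given unilaterally. The neural retina was removed and the RPE/choroidal RNA was pre-amplified with a SmartSeq v4 kit, so each library mixes treated spots, untreated RPE and choroid. Nothing in the labels ties a library to 1 animal, and p-values measure only the spread between these libraries. In such bulk tissue, fewer cells of a type and less RNA per cell cannot be told apart.

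Initiation is the step in which a ribosome is brought to an mRNA and finds its start codon. The eIF4F complex (cap-binding eIF4E, scaffold eIF4G and helicase eIF4A) recruits the mRNA, eIF3 holds the small ribosomal subunit, and eIF2 with GTP delivers the initiator methionyl-tRNA, while eIF1, eIF1A and eIF5 govern start codon selection. eIF2B recharges eIF2 with GTP, and stress kinases that phosphorylate the alpha subunit of eIF2 block that exchange, which is the integrated stress response.

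Total counts were 25700881 to 36766020 per naïve control library and 32094560 to 38755994 per laser treated library, and log2 values of library pairs correlated at 0.897 to 0.955. Markers of the labelled tissue were present, and 8 RPE markers summed to 91979 to 127842 CPM (counts scaled to the size of the library) in controls and 73878 to 122816 CPM after laser. Rod and other neural retina markers were also present, at 6740 to 26166 CPM and 4528 to 20019 CPM. The 3 Schwann cell markers measured summed to 294 to 529 CPM and 396 to 1104 CPM, and 2 of them were at an unadjusted p under 0.05. The part of the Schwann cell markers in the results was not tested. Summed CPM of the Y-linked genes Ddx3y, Kdm5d and Uty was under 1 in 4 of 6 control and 1 of 5 laser treated libraries, was 6.88 in laser treated library 2 and was 103 or more in the other libraries, and the labels do not give the sex. The balance of AT-rich against GC-rich transcripts also moved with the groups. The median deviation of genes of 55% GC or more minus that of genes under 45% GC was -0.57 to 0.02 on the log2 scale in controls and 0.04 to 0.45 after laser.

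Initiation factor genes spanned a wide range of levels. Per length, as TPM (counts scaled by the length of the transcript and the size of the library), Eif1 was highest at 1246 ± 222 in controls (SD, n = 6) and 958 ± 93.2 after laser (SD, n = 5), and ranked 86 among all genes by mean TPM. Eif5a, whose product carries hypusine and helps the ribosome through difficult peptide bonds, followed at 489 ± 21.7 and 508 ± 35.1 TPM. Next came Eif4g2, which encodes an eIF4G relative that cannot bind eIF4E, at 285 ± 20.04 and 248 ± 41.3 TPM, and the helicase gene Eif4a1 at 233 ± 30.9 and 229 ± 24.1 TPM, whose library ranges overlapped.

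Within eIF3, TPM of the genes for the subunits e, l, g, h, c, m, k and i lay between 115 and 173 as a mean over all 11 libraries, while Eif3j was at 5.16 TPM. This narrow range depends on the length used. Over the length of all exons of a gene, the same genes ran from 49.9 (Eif3i) to 166 TPM (Eif3c), with Eif3j at 6.84 TPM. In TPM of the deposited transcripts they ran from 1.68 (Eif3e) to 78.0 (Eif3c), with Eif3j at 17.4. Eif3j encodes the loosely bound subunit, and reads of its near-identical second copy could be split between the copies. In the eIF2 group, the eIF2B gene Eif2b2 was highest at 76.2 TPM and the kinase gene Eif2ak4 was lowest at 3.78 TPM. Genes of the eIF4E binding proteins were low, with Eif4ebp1, Eif4ebp2 and Eif4ebp3 between 4.30 and 9.11 TPM, and Argonaute genes lay between 0.827 and 4.53 TPM. Another coding gene on the same strand covers 67.3% of the exonic length of Eif4ebp3, and reads there cannot be told apart.

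**Figure D1:**
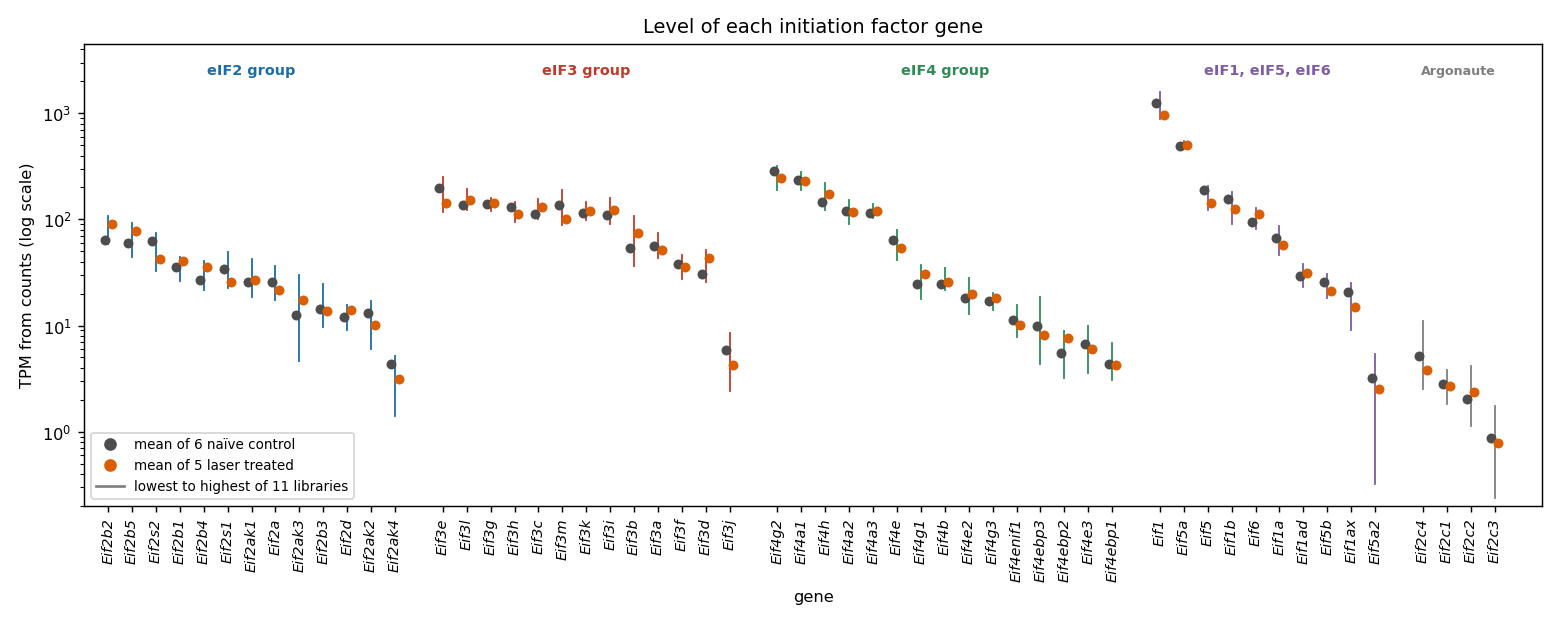
TPM from counts (log axis) of the 55 initiation factor genes by group, with grey points for the mean of 6 naïve control libraries, orange points for the mean of 5 laser treated libraries and lines from the lowest to the highest of 11 libraries. Eif1 stands highest, at 1246 TPM in controls and 958 TPM after laser, and Eif2c3 lowest, at 0.827 TPM over all libraries.

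The first question was whether the initiation factor genes differed between laser treated and naïve control tissue. None of the 55 passed an adjusted p of 0.05 in edgeR's quasi-likelihood test over all genes, and the smallest adjusted p was 0.172, for Eif2s2 and Eif5. The unadjusted p was under 0.05 for 14 genes (25.5%), against 15.9% of all genes. This count was 12 with the Y-linked level as a covariate and 15 with the rod marker level as a covariate, which were chosen after the data were seen. Without a covariate, 11 of the 55 genes were called lower after laser at an unadjusted p under 0.05, against 7.68% of all genes. The other 3 of the 14, or 3 of the 55, were called higher, against 8.24% of all genes. With DESeq2, 5 of the 45 members that it gave an adjusted p passed 0.05, Eif1, Eif2b2, Eif2s2, Eif3e and Eif5, against 7.88% of the genes given one.

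By sign alone, 36 of 55 genes (65.5%) had a lower estimate after laser, against 51.5% of all genes, and the median log2 fold change was -0.12, against -0.02 over all genes. Groups of libraries did not overlap for 1 gene, Eif2s2, which was lower, against 0.863% of all genes lower, 1.4% higher and 2.26% in either direction. With RLE scaling in place of TMM, no member was free of overlap. The eIF2, eIF3 and eIF4 groups had similar medians. They were -0.00, -0.04 and -0.08, with 7 of 13, 8 of 13 and 10 of 15 genes lower. The 10 genes of eIF1, eIF5 and eIF6 had a median of -0.37, with 8 of 10 lower. The Argonaute genes had a median of -0.17, with 3 of 4 lower and none at an unadjusted p under 0.05 in edgeR.

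**Figure D2:**
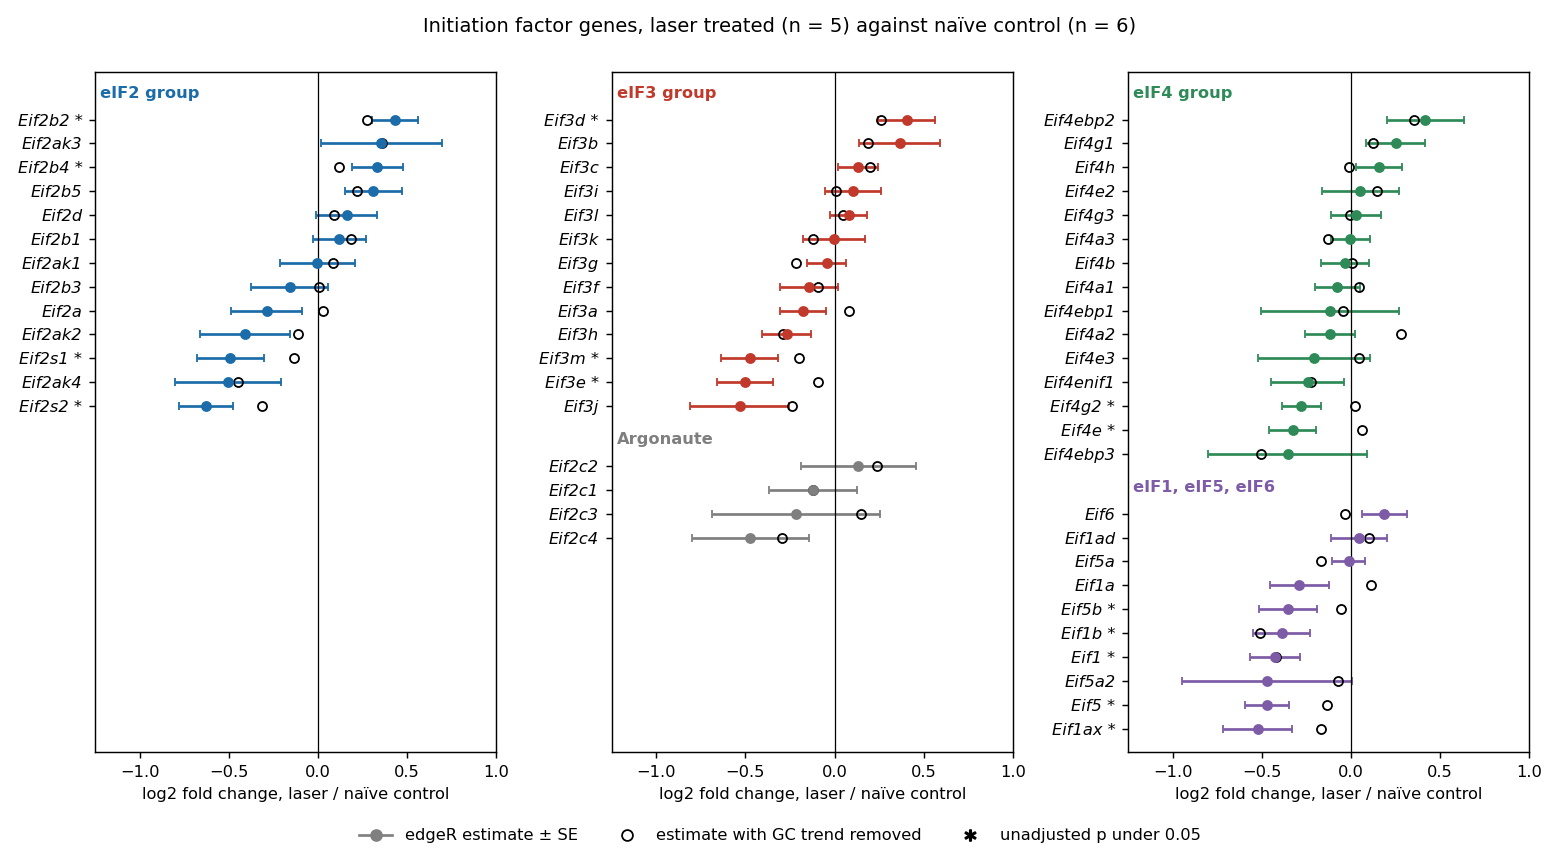
Log2 fold change of each initiation factor gene, laser treated over naïve control, in edgeR (filled points, bars are ± 1 SE) and after removal of a trend on transcript GC content (open circles), with an asterisk at an unadjusted p under 0.05. Values run from -0.63 for Eif2s2 to 0.43 for Eif2b2, and many open circles of the lower genes lie nearer 0.

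Genes that act in start codon selection were among those with the lowest fold changes. Eif1 encodes the small factor that keeps the scanning ribosome open until a start codon is found (chr11:100319885-100322096, + strand, GRCm38). Its controls had a lowest, median and highest value of 687, 745 and 989 CPM, and the laser treated libraries had 673, 560, 565, 461 and 723 CPM. Only laser treated library 5 lay inside the control range. In edgeR its log2 fold change was -0.43 ± 0.14 (SE), with an adjusted p of 0.194 in edgeR.

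Its paralog Eif1b (chr9:120492232-120495330, + strand) had 61.1, 80.1 and 90.1 CPM in controls and 76.4, 45.7, 68.4, 47.6 and 64.3 CPM after laser, with 3 laser treated libraries inside the control range. The fitted log2 fold change was -0.39 ± 0.16 (adjusted p = 0.263). An antisense gene covers 12.7% of the exonic length of Eif1b, and without a stated strand setting its reads cannot be told apart.

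Start codon contexts of these genes are shown because eIF1 is the factor that disfavours start codons in a poor context, and its own mRNA is known for such a context. Each has 6 bases before the ATG, the ATG and 3 bases after it, from GENCODE M21 transcripts on GRCm38, with capitals for the base at the third position before the ATG, the ATG itself and the base after it.
Eif1: tatCgtATGTcc
Eif1b: tgtCgcATGTcc
Eif5: gccAaaATGTct
Eif1ax: gcgGccATGCcc
Eif2s2: acaGccATGTcc
Eif3e: ggcAagATGGcg
Eif1 and Eif1b carry C rather than a purine at the first capital. A pyrimidine stands there in 7 of the 54 members with a context and in 15.7% of 21089 coding genes, and the other members with one are Eif2ak3, Eif2c3, Eif3b, Eif4h and Eif6.

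Eif1ax, the X-linked gene for eIF1A (chrX:159372178-159389928, + strand), had 43.1, 50.5 and 67.1 CPM in controls and 50.3, 22.9, 37.3, 30.6 and 40.5 CPM after laser. Only laser treated library 1 reached the control range. Its log2 fold change was -0.52 ± 0.20 (adjusted p = 0.225), and with the Y-linked level as a covariate it was -0.64. Its autosomal copy Eif1a had a log2 fold change of -0.29 ± 0.16 (adjusted p = 0.420), and reads of these near-identical copies could be split between them.

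Eif5 encodes the protein that triggers GTP hydrolysis on eIF2 at the start codon (chr12:111538016-111546752, + strand). Controls had 301, 382 and 405 CPM, and laser treated libraries had 314, 258, 223, 243 and 306 CPM, of which libraries 1 and 5 lay just inside the control range. In edgeR its log2 fold change was -0.47 ± 0.12 (adjusted p = 0.172).

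Eif5b, whose product joins the large ribosomal subunit (chr1:37998010-38055579, + strand), had 75.2, 99.9 and 124 CPM in controls and 88.4, 84.9, 63.8, 61.1 and 89.3 CPM after laser, with 2 libraries below the control range. The fitted log2 fold change was -0.35 ± 0.16 (adjusted p = 0.305), and Rev1 on the opposite strand covers 16.8% of its exonic length. Among the others of these 10 genes, Eif5a was at -0.01 ± 0.09 and Eif6, which keeps the large subunit from joining too early, at 0.19 ± 0.13.

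**Figure D3:**
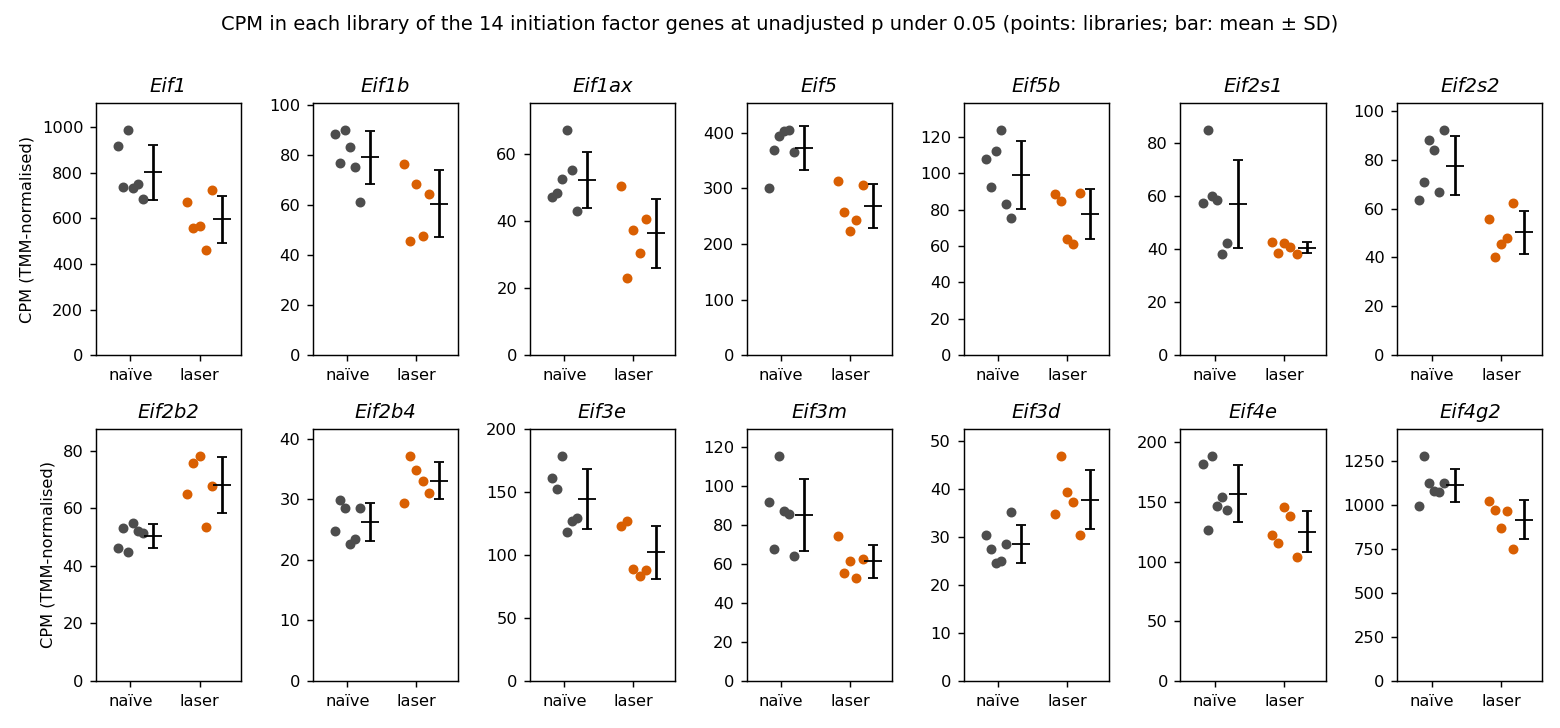
TMM-normalised CPM in each library (points, grey naïve control and orange laser treated, with mean ± SD beside them) of the 14 initiation factor genes at an unadjusted p under 0.05. Eif2s2 is the panel where the groups do not overlap, with controls from 63.4 CPM and laser treated libraries up to 62.3 CPM.

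In the eIF2 group, the genes for the alpha and beta subunits of the factor had estimates below 0. The gamma subunit genes had been left out. For the exchange factor, 4 of 5 genes had estimates above 0. Eif2s2 encodes the beta subunit of eIF2 (chr2:154871410-154892935, - strand). Controls had 63.4, 77.6 and 92.2 CPM and laser treated libraries had 55.7, 40.1, 45.5, 47.8 and 62.3 CPM, so all 5 lay below every control, by a narrow margin. Its log2 fold change was -0.63 ± 0.15, a level 35.2% lower by the fit (adjusted p = 0.172).

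Eif2s1, for the alpha subunit that stress kinases phosphorylate (chr12:78861819-78887010, + strand), had 38.2, 58.0 and 84.9 CPM in controls and 42.6, 38.4, 42.1, 40.9 and 38.1 CPM after laser. The laser treated values were close to each other at the bottom of the control range, and 2 of 6 controls were as low. In edgeR its log2 fold change was -0.49 ± 0.19 (adjusted p = 0.233), and without naïve control library 2 it was -0.34.

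The 5 eIF2B genes, Eif2b1 to Eif2b5, had a median log2 fold change of 0.31, and 4 of 5 were higher. Eif2b2, for the beta subunit (chr12:85219481-85226628, + strand), had 44.7, 51.8 and 54.97 CPM in controls and 65.0, 75.5, 78.2, 53.3 and 67.9 CPM after laser. Only laser treated library 4 was in the control range. The fitted log2 fold change was 0.43 ± 0.13 (adjusted p = 0.177).

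Eif2b4, for the delta subunit (chr5:31187558-31193430, - strand), had 22.6, 26.7 and 29.9 CPM in controls and 29.4, 37.2, 34.8, 33.04 and 31.0 CPM after laser, with library 1 inside the control range. Its log2 fold change was 0.33 ± 0.14 (adjusted p = 0.282). Eif2b5, which holds the catalytic subunit, was at 0.31 ± 0.16, Eif2b1 at 0.12 ± 0.15 and Eif2b3 at -0.16 ± 0.22, the last with laser treated library 4 at 36.7 CPM and the others at 17.6 to 22.3 CPM.

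Set side by side in each library, the mean log2 CPM of the eIF2B genes minus that of Eif2s1 and Eif2s2 was -1.03 to -0.47 in controls (median -0.72) and -0.25 to 0.27 after laser (median 0.05), with no overlap. This measure was chosen after the values were seen, and no test was made of it. The group difference was 0.74, and 0.67 to 0.80 with any 1 library left out. The eIF2B genes had a median GC content of 53.2% and the subunit genes of 41.5%. With the GC trend removed, the difference was 0.33, and the groups overlapped (-0.84 to -0.28 in controls, -0.46 to -0.07 after laser).

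**Figure D4:**
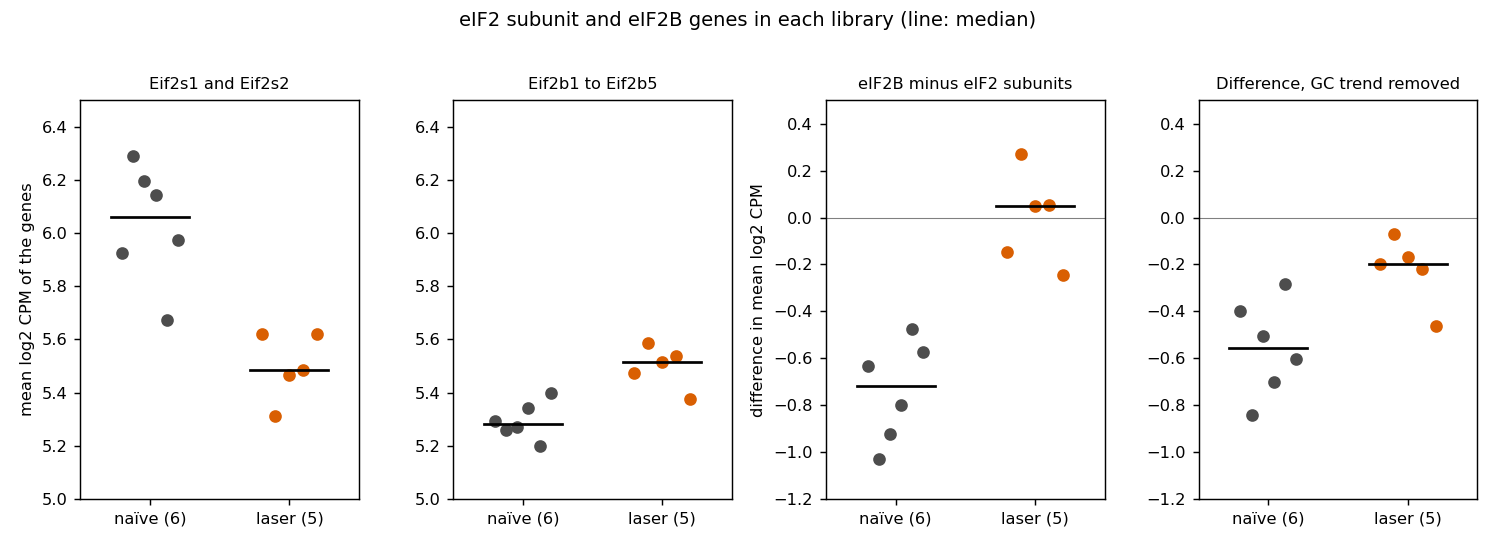
Mean log2 CPM per library of Eif2s1 with Eif2s2 and of the 5 eIF2B genes, and the difference between them without and with the GC trend removed (points are libraries, lines are medians, 6 naïve control and 5 laser treated). The difference has medians of -0.72 and 0.05 before removal of the trend, and the groups overlap after it.

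The 4 eIF2 kinase genes had a median log2 fold change of -0.21, with 3 of 4 lower and none at an unadjusted p under 0.05 in edgeR. Eif2ak4, for the amino acid sensor GCN2, was at -0.51 ± 0.30, and Eif2ak2, for the RNA sensor PKR, at -0.41 ± 0.25. Eif2ak3, for the endoplasmic reticulum kinase PERK, was at 0.35 ± 0.34, and its laser treated libraries ran from 10.3 to 53.4 CPM around a control range of 14.3 to 35.3 CPM. Eif2ak1, for the haem-regulated kinase, was at -0.00 ± 0.21. Eif2a and Eif2d, whose products can deliver tRNA without eIF2, were at -0.29 ± 0.20 and 0.16 ± 0.17.

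The eIF3 genes differed among themselves more than the group median shows. In the core of 8 subunits (a, c, e, f, h, k, l and m), 6 of 8 genes were lower, with a median of -0.16, while the module of b, g and i had 2 of 3 higher, with a median of 0.10. The median GC content was 49.7% in the core and 55.8% in the module. With the GC trend removed, the medians were -0.09 and 0.01, with 5 of 8 core genes lower and 2 of 3 module genes higher. Eif3e, for a core subunit (chr15:43250058-43282719, - strand), had 118, 141 and 179 CPM in controls and 123, 127, 89.1, 82.9 and 87.8 CPM after laser, so libraries 3, 4 and 5 were below every control and libraries 1 and 2 inside the range. In edgeR its log2 fold change was -0.50 ± 0.16 (adjusted p = 0.181).

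Eif3m, another core subunit gene (chr2:104999656-105017080, - strand), had 63.9, 86.2 and 115 CPM in controls and 74.4, 55.4, 61.2, 52.5 and 62.2 CPM after laser. All laser treated libraries but library 1 were below the lowest control. The fitted log2 fold change was -0.48 ± 0.16 (adjusted p = 0.203).

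Eif3d encodes the subunit that can bind the cap of selected mRNAs by itself (chr15:77958998-77970813, - strand). It had 24.6, 27.9 and 35.2 CPM in controls and 34.7, 46.9, 39.4, 37.3 and 30.4 CPM after laser, with laser treated libraries 1 and 5 inside the control range. Its log2 fold change was 0.40 ± 0.16 (adjusted p = 0.244). An antisense gene covers 43.3% of the exonic length of Eif3d, and its reads cannot be told apart from those of Eif3d.

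Of the other eIF3 genes, the estimates furthest from 0 were those of Eif3j at -0.53 ± 0.28, Eif3b at 0.36 ± 0.23 and Eif3h at -0.27 ± 0.14. Eif3b, for the scaffold of the b, g and i module, was highest in laser treated library 2, at 154 CPM against a highest control of 109 CPM. Eif3c, Eif3g, Eif3i, Eif3k and Eif3l lay between -0.04 and 0.13.

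In the eIF4 group, 2 of 15 genes (13.3%) were at an unadjusted p under 0.05, a share below the 15.9% of all genes, and both were lower. Eif4e, the cap-binding protein gene (chr3:138526179-138559696, + strand), had 126, 151 and 189 CPM in controls and 123, 115, 146, 138 and 104 CPM after laser, with 2 laser treated libraries inside the control range. In edgeR its log2 fold change was -0.33 ± 0.13 (adjusted p = 0.255).

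Eif4g2 (chr7:111067750-111083030, - strand) had 999, 1103 and 1283 CPM in controls and 1027, 973, 874, 971 and 752 CPM after laser, and only library 1 lay inside the control range. The fitted log2 fold change was -0.28 ± 0.11 (adjusted p = 0.241). The canonical scaffold gene Eif4g1 was at 0.25 ± 0.17 and Eif4g3 at 0.03 ± 0.14.

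Helicase genes had small estimates, with Eif4a1 at -0.08 ± 0.13, Eif4a2 at -0.12 ± 0.14 and Eif4a3, whose product marks exon junctions, at -0.00 ± 0.11. Eif4b and Eif4h, for helicase cofactors, were at -0.03 ± 0.14 and 0.16 ± 0.13. The 4 genes of eIF4E binding proteins had a median of -0.18, with 3 of 4 lower. Eif4ebp2, for a repressor that competes with eIF4G for eIF4E, was the higher gene at 0.42 ± 0.22, with 4 of 5 laser treated libraries above every control and library 4 at 14.3 CPM.

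The fold changes of the initiation factor genes were ordered by GC content of the transcript. Over the 55 genes, Pearson's r was 0.718 and Spearman's rho 0.708, a description over genes of the same libraries, and over 14251 genes with a known GC content r was 0.377 and rho 0.465. The 2 sets were not matched on level, so their coefficients are not like for like. Fold changes ran from -0.63 to 0.43 in the members and from -5.45 to 4.99 over all 14602 genes. All 17 members under 45% GC were lower, with a median of -0.41. Of all genes under 45% GC, 81.6% were lower, with a median of -0.31. Of the 6 members at 55% GC or more, 5 were higher, with a median of 0.26, against 0.28 over all such genes.

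Of the 11 genes lower at an unadjusted p under 0.05, 9 were under 45% GC, among them Eif2s2 at 42.1%, Eif5 at 41.7% and Eif3e at 40.3%. Eif1 at 50.9% and Eif1b at 53.8% were the exceptions. The 3 higher genes lay between 54.6% and 56.8%. When a trend of each library on GC content was removed, 3 of 55 genes were at an unadjusted p under 0.05, against 7.33% of all genes. Of the 55, 2 were lower at that level (against 3.36% of all genes) and 1 was higher (against 3.97% of all genes). A lower estimate was held by 27 of the 55, and the median of the 55 was 0.00. Eif1 then had a log2 fold change of -0.42 ± 0.15 (SE) and Eif1b of -0.51 ± 0.18, while the third gene, Eif4a2, was higher at 0.28 ± 0.12. All 3 had an adjusted p of 0.678 in that edgeR fit. Eif2s2 moved to -0.32, Eif5 to -0.14, Eif3e to -0.10 and Eif2b2 to 0.27. All 5 eIF2B genes then had an estimate above 0, with a median of 0.18, but Eif2b3 was at 0.005 and none was at an unadjusted p under 0.05. In the same fit 7843 of 14602 genes were higher, with a median of 0.04. The eIF2, eIF3 and eIF4 groups had medians of 0.08, -0.09 and 0.02, with 0, 0 and 1 gene at an unadjusted p under 0.05. Whether the trend on GC content comes from the laser or from the handling of RNA was not tested.

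**Figure D5:**
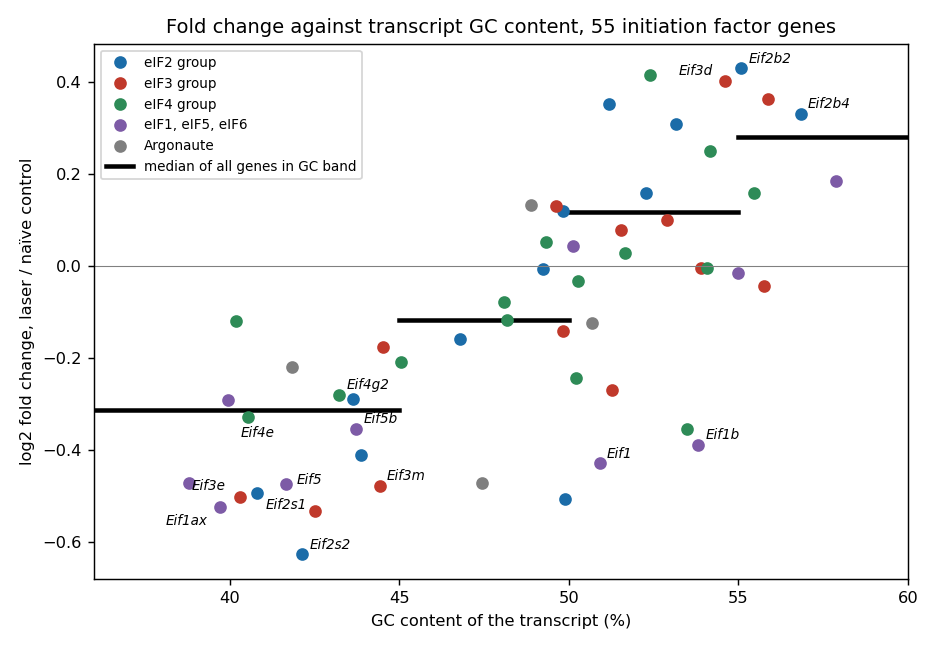
Log2 fold change, laser treated over naïve control, against the GC content of the transcript (%) for the 55 initiation factor genes, coloured by group, with black lines for the median of all genes in 4 GC bands. All 17 members under 45% GC lie below 0, and Eif1 and Eif1b lie well below the line of their own band.

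Many translation genes carry a run of pyrimidines at the 5′ end of the mRNA, the TOP motif through which mTORC1 controls their translation. In RefSeq start sites on GRCm38.p6, 30 bases from 10 before the start were searched for a run of at least 10 C or T on the strand of the gene, which stood in 4 of 58 starts of 44 members (6.9%) and in 4.77% of 32851 starts of all genes. These windows are shown, with the run in capitals. Relative to the start, the runs begin at -4 (Eif3f), -10 (Eif2b5), -7 (Eif3l) and -10 (Eif4enif1). That of Eif4enif1, 10 bases long, ends before the start, and those of Eif2b5 and Eif3l lie mostly before it. Only the run of Eif3f lies mostly within the mRNA from its listed start. Runs under 10 bases were not counted. Eif3e and Eif3h, of the textbook list below, had no listed start and were not searched.
Eif3f (chr7:108934405-108934434, + strand): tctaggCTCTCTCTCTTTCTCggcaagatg
Eif2b5 (chr16:20498807-20498836, + strand): CTCTTTCTCTCCCTgcaactacaccttcgc
Eif3l (chr15:79075213-79075242, + strand): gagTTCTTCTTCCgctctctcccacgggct
Eif4enif1 (chr11:3203009-3203038, + strand): CCCTTCTTCCggaggagcctctagcccggg
Their log2 fold changes were -0.14, 0.31, 0.08 and -0.24, with no common direction. A list of 8 textbook TOP genes of initiation and elongation (Eif3e, Eif3f, Eif3h, Eef1a1, Eef1b2, Eef1d, Eef1g and Eef2) had 4 higher and 4 lower, with a median of -0.07. At an unadjusted p under 0.05, the elongation factor gene Eef1b2 was lower (-0.60 ± 0.20), as was Eif3e, and Eef2 (0.35 ± 0.12) and Eef1g (0.27 ± 0.11) were higher, all with an adjusted p of 0.181 or more. These were 2 of 8 in each direction, against 7.68% of all genes called lower and 8.24% called higher. With the GC trend removed, 5 of 8 were lower, with a median of -0.09. Only Eef1b2 (-0.41), 1 of 8, kept an unadjusted p under 0.05 in that edgeR fit, against 7.33% of all genes.

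Before removal of the GC trend, helpers of initiation outside the Eif names were mostly lower. Of 20 genes of cap, poly(A)-binding and scanning helpers, 14 had a lower estimate (51.5% of all genes did). At an unadjusted p under 0.05 in edgeR, 6 of the 20 were lower (against 7.68% of all genes) and none was higher. None was past the adjusted p (smallest 0.172). Mcts1, whose product forms with DENR a factor that reinitiates and releases ribosomes, had 67.2 to 137 CPM in controls and 44.8 to 77.4 CPM after laser (-0.88 ± 0.19), and its partner Denr was at -0.44 ± 0.14. Paip1 and Paip2, genes of an activator and a repressor of the poly(A)-binding protein, were at -0.77 ± 0.22 and -0.48 ± 0.15. With the GC trend removed, 10 of the 20 genes had a lower estimate, with a median of 0.00. In that edgeR fit 2 of the 20 were at an unadjusted p under 0.05, against 7.33% of all genes. Mcts1 was then at -0.50, Paip1 at -0.39, Denr at -0.12 and Paip2 at -0.08.

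Targets of the integrated stress response, with the genes of the eIF2 phosphatase, had 7 of 13 higher, with a median of 0.03. Only Sesn2, 1 of 13, was at an unadjusted p under 0.05 in edgeR (0.60 ± 0.28, adjusted p = 0.305), against 15.9% of all genes. Atf4, the main transcript that gains translation when eIF2 is phosphorylated, was at -0.03 ± 0.22, and Ddit3, for the stress factor CHOP, at -0.10 ± 0.14, both named after their values were seen. With the GC trend removed, 8 of the 13 genes had a lower estimate, with a median of -0.09. None was at an unadjusted p under 0.05 in that edgeR fit, and Sesn2 was at 0.38. These are RNA levels, and neither phosphorylation nor translation was measured.

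Genes of mTORC1 and its control had 8 of 12 higher, with a median of 0.11. At an unadjusted p under 0.05, Rheb, for the activating GTPase, was lower (-0.43 ± 0.12), as was Rps6 (-0.46 ± 0.15), and Akt1s1 (0.42 ± 0.16) and Rps6kb2 (0.50 ± 0.21) were higher, with the smallest adjusted p at 0.174. These were 2 of 12 in each direction, against 7.68% of all genes called lower and 8.24% called higher. Elongation and termination genes had 6 of 12 higher, and at an unadjusted p under 0.05 there were 3 lower and 2 higher, against the same shares of all genes. Eef1e1, which encodes a partner of the aminoacyl-tRNA synthetases, was among the lower at -0.62 ± 0.20 (adjusted p = 0.197 in edgeR), with Eef1b2. With the GC trend removed, 4 of the 12 mTORC1 genes were lower, with a median of 0.03, and 5 of the 12 elongation and termination genes, with a median of 0.12. Only Rps6 (-0.41) and Eef1b2 (-0.41) were at an unadjusted p under 0.05 in that edgeR fit. Each was 1 of 12, against 7.33% of all genes. The 3 genes of mitochondrial initiation had 1 higher and none at an unadjusted p under 0.05 in edgeR.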

How the data were processed

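RPE/choroidal RNA of 11 libraries was analysed. The authors deposited raw counts per gene, not normalized. The submitters' processing notes name bcl2fastq 2.18.0.12, Trim Galore, STAR 2.5.3a, featureCounts 1.5.3, StringTie 1.3.3 and edgeR 3.22.3, and the builds mm10 and GRCm38. The authors also deposited log2 fold changes and abundances, a score (an F statistic) and p-values with FDR of their own comparison, which were not used. For each library the authors deposited StringTie transcripts with TPM, all of 1 exon, in files with a label R1 or R2 whose meaning is not given in the sources used here. Since none bears an Eif name, TPM per gene was rebuilt from their overlap with GENCODE M21 exons, and levels between genes use TPM from counts over the longest coding transcript.

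Groups followed the labels and were compared with edgeR 4.0.16 (R 4.3.3), by a robust quasi-likelihood fit on TMM-scaled counts, and p-values were adjusted after Benjamini and Hochberg across 14602 genes, since filterByExpr left all of them in. SE is the log2 fold change divided by the square root of F. GC content was known for 14251 genes. The GC trend was a loess fit (span 0.3) of each library's log2 CPM deviations. Promoters are from RefSeq. Alternatives used DESeq2 1.42.0, limma 3.58.1, other scalings, filters, covariates and subsets. Tables used Python 3.11.15 with pandas 2.3.3.

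Members and lists were chosen with earlier results of these data known. Values per library are given for members at an unadjusted p under 0.05 and, in the eIF2, eIF3 and eIF4 groups, for the 2 with the smallest p and the highest mean TPM, with at most 4 genes per pathway list. At this depth the precision of a fold change is given by its SE.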

Additional observations from a re-analysis of the deposited data

Results flagged for a closer look

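Of 110 groups of CPM values (55 genes in 2 groups), 6 held a library far from the others by Dixon's 95% limit, and chance gives about 1 in 20. Among naïve control libraries, Eif3c was at 230 CPM in library 1 against 174 to 185 CPM in the others, and Eif4ebp3 was at 6.94 CPM in library 2 against 2.48 to 3.36 CPM. Among laser treated libraries, Eif2b3 was at 36.7 CPM in library 4 against 17.6 to 22.3 CPM, and Eif2c2 was at 8.00 CPM in library 1 against 15.8 to 18.7 CPM. Eif4ebp1 was at 5.92 CPM in laser treated library 5 against 3.05 to 3.78 CPM, and Eif2ak1 was at 89.1 CPM in laser treated library 2 against 40.2 to 54.1 CPM.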

How the results depend on the processing

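The count of genes past the adjusted p of 0.05 was 0 in edgeR and 0 with any 1 library left out, but 5 with DESeq2 and 1 (Eif2s2) without naïve control library 6 and laser treated library 5 together. The count at an unadjusted p under 0.05 was 14, and 10 to 15 with 1 library left out. It was 9 on log2(TPM + 1) or log2(TPM + 0.1) of the transcript files (5 of the 14 in each), 3 with the GC trend removed (2 of the 14), 6 within the label R1 (4 of the 14) and 5 within R2 (all among the 14). With the Y-linked level as a covariate it was 12, and with the rod marker level 15, both chosen after the data were seen. The replicate block left 13 genes (11 of the 14), and 2 with the GC trend removed as well. Same-numbered libraries had correlations of their deviations of 0.01, 0.12, 0.36, -0.01 and -0.01, and differently numbered ones of -0.29 to 0.31. Whether same-numbered libraries share more than a number was not tested.

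Non-overlapping genes numbered 1 to 5 with 1 library left out (5 without laser treated library 1), 4 without naïve control library 6 and laser treated library 5, and 0 with RLE scaling, which leaves Eif2s2 with an overlap. The eIF2 median became 0.34 and 0.35 on the transcript files (pseudocount 1 and 0.1) and 0.17 within R1, the eIF3 median 0.18 and 0.34, and the median of all members 0.036 at the smaller pseudocount. With 1 library left out, medians ranged from -0.09 to 0.09 (eIF2), -0.12 to -0.02 (eIF3), -0.11 to -0.04 (eIF4) and -0.16 to -0.08 (all members).

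Of 420 refits of the 14 named genes, 406 kept the sign and the side of the adjusted threshold, 6 passed it and 8 turned the sign. On the transcript files Eif3e became 0.58 and 1.45 and Eif3m 0.91 and 1.10, where their TPM (1.68 and 2.62 as a mean) was far under that from counts. With the GC trend removed, without and with the block, Eif4g2 became 0.023 and 0.067 and Eif4e 0.060 and 0.080. With 1 library left out, Eif2s1 lost an unadjusted p under 0.05 without naïve control library 2 and Eif3d without laser treated library 2, Eif4e, Eif4g2, Eif1b, Eif2b4 and Eif5b lost it in 3 or more of 11 refits, and the other 7 kept it.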
